A study of Mus musculus with 11 samples.

Results

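The genes described here are 10 genes of the protein folding machinery of the endoplasmic reticulum (ER) and of its stress response, taken by name: *Bhlha15*, *Hspa5*, *Hsp90b1*, *Pdia4*, *Dnajb9*, *Sdf2l1*, *Herpud1*, *Manf*, *Atf4* and *Ddit3*. They are 10 of the 19058 genes in the count table, and all 10 were among the 13937 genes that passed the filter on low counts, which asked for 30 or more counts in the WT mice together. The 10 genes were chosen with earlier results of these data known, so their counts beside all genes are a description. RNA sequencing was done on whole lacrimal glands of male NOD mice, a strain in which males develop spontaneous lacrimal gland inflammation. The genotypes were wild-type (WT), with 3 mice, *Tlr7* KO, with 5 mice, and *Ifnar1* KO, with 3 mice, and there was 1 library per mouse. *Tlr7* encodes an endosomal receptor for single-stranded RNA, and *Ifnar1* encodes a subunit of the type I interferon receptor. The *Tlr7* KO allele was a deletion of 2 bases made by CRISPR/Cas9 in NOD embryos, backcrossed to NOD for 1 generation. The *Ifnar1* KO mice were homozygous for the em16 allele. The sources used here name no restriction of either allele to a cell type, so these groups do not separate immune from gland cells. WT and *Tlr7* KO mice were 20 to 22 weeks old, and the age of the *Ifnar1* KO mice is not given in the sources used here. The same 3 WT mice served both comparisons with WT.

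Acinar cells of the lacrimal gland make and secrete large amounts of tear protein. Secreted proteins enter the ER through the translocon, fold there with the help of chaperones and oxidoreductases, and are exported if folded or sent to the proteasome if not. When unfolded protein builds up, the sensors IRE1, ATF6 and PERK start the unfolded protein response. IRE1, encoded by *Ern1*, splices the *Xbp1* mRNA, and ATF6 is cut to release a transcription factor, and both raise chaperone and degradation genes. PERK, encoded by *Eif2ak3*, slows translation and favours the translation of *Atf4* mRNA, whose product turns on amino acid synthesis genes and *Ddit3*. That last branch is shared with other kinases that sense amino acid shortage, heme or viral RNA, and is known as the integrated stress response (ISR). *Bhlha15*, also called Mist1, encodes a transcription factor of serous secretory cells that is itself under the control of XBP1.

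Libraries held 20512315 to 28814250 counts. Levels are given as CPM, counts relative to the library total scaled by TMM factors, which ranged from 0.687 to 1.48. The factors were 1.43 in WT 1 and 1.48 in WT 3 but 0.873 in WT 2, and 0.687 in *Tlr7* KO 5. The 10 most abundant genes took 55.0% of counts in WT 1 and 54% in WT 3 but 65.8% in WT 2, and 65.9% in *Tlr7* KO 5. Scaling by library size alone shifted the middle of the distribution of log2 fold changes, its median, from -0.04 to -0.54 between *Tlr7* KO and WT, from -0.02 to -0.31 between *Ifnar1* KO and WT, and from 0.00 to 0.19 between the knockouts. *Tlr7* measured 1.52 to 2.94 CPM in WT, 0.494 to 0.950 CPM in *Tlr7* KO and 0.251 to 0.822 CPM in *Ifnar1* KO mice. *Ifnar1* measured 10.5 to 15.1 CPM in WT, 8.34 to 11.2 CPM in *Tlr7* KO and 8.34 to 9.63 CPM in *Ifnar1* KO mice. Both transcripts were lower in both knockouts, and the *Tlr7* deletion of 2 bases leaves most of the transcript in place, so these levels do not check the labels. The acinar markers *Aqp5*, a water channel, and *Rab3d*, a secretory granule GTPase, were present in every mouse at 90.3 to 169 CPM and 164 to 261 CPM. Salivary gland genes summed to 3187 CPM in WT 3, 2771 CPM in *Ifnar1* KO 2 and 225 CPM in *Ifnar1* KO 1, against 2.91 to 11.9 CPM in the other 8 mice. Skeletal muscle genes summed to 494 CPM in WT 1, 344 CPM in WT 2 and 349 CPM in *Tlr7* KO 4, against at most 12.8 CPM elsewhere.

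The first question was whether the ER folding genes differed between WT and *Tlr7* KO lacrimal glands. Of the 10 genes, 7 were up-regulated in *Tlr7* KO glands: *Bhlha15*, *Hspa5*, *Pdia4*, *Dnajb9*, *Sdf2l1*, *Herpud1* and *Manf*. Over all genes tested, 15.3% were called higher in *Tlr7* KO and 17.4% lower. *Hsp90b1*, *Atf4* and *Ddit3* did not pass the test, and all 10 fold changes were positive. Their median log2 fold change was 0.48, beside -0.04 over all genes. In whole glands, fewer cells of a type and less RNA per cell cannot be told apart. A call is an adjusted p under 0.05 in edgeR's quasi-likelihood test.

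The chaperones came first. *Hspa5* encodes BiP, the Hsp70 chaperone of the ER lumen that also holds the stress sensors inactive. It measured 532, 559 and 528 CPM in the 3 WT mice, 797, 751, 806, 739.9 and 796 CPM in the 5 *Tlr7* KO mice, and 674, 898 and 937 CPM in the 3 *Ifnar1* KO mice. Every knockout mouse lay above every WT mouse. *Hspa5* rose 1.44-fold in *Tlr7* KO glands (log2 fold change 0.53, SE 0.0900, adjusted p = 0.00364). *Hsp90b1* encodes GRP94, the Hsp90 of the ER. It measured 208, 235 and 221 CPM in WT, 239 to 264 CPM in *Tlr7* KO, and 232, 268 and 294 CPM in *Ifnar1* KO mice. All *Tlr7* KO mice lay above all WT mice, yet the log2 fold change of 0.17 (SE 0.0824) did not pass the test (adjusted p = 0.138).

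*Pdia4* encodes a protein disulfide isomerase, which forms and rearranges disulfide bonds. It measured 42.0, 50.8 and 47.2 CPM in WT, 54.8 to 58.8 CPM in *Tlr7* KO, and 44.3, 72.4 and 71.3 CPM in *Ifnar1* KO mice. It rose 1.22-fold in *Tlr7* KO glands (log2 fold change 0.29, adjusted p = 0.0216), the smallest of the 7 changes that passed. *Dnajb9*, also called ERdj4, encodes a J-domain co-chaperone of BiP that brings BiP back onto IRE1. It measured 34.1, 55.0 and 33.7 CPM in WT and 54.4 to 58.4 CPM in *Tlr7* KO mice. WT 2 thus lay within the *Tlr7* KO range and the other WT mice far below it. The log2 fold change of 0.47 (SE 0.153, adjusted p = 0.0427) missed the threshold in 7 of the 8 fits that left out 1 mouse, and was 0.35 without WT 1 and 0.73 without WT 2.

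*Sdf2l1*, whose product works with BiP and J-domain proteins to keep substrates soluble, showed one of the widest separations. It measured 51.6, 61.1 and 45.8 CPM in WT and 94.0, 83.6, 97.4, 89.6 and 98.3 CPM in *Tlr7* KO mice. It rose 1.75-fold (log2 fold change 0.81, SE 0.105, adjusted p = 0.00138). *Herpud1*, an ER membrane protein of the degradation machinery, measured 269, 249 and 243 CPM in WT and 465, 401, 445, 482 and 428 CPM in *Tlr7* KO mice. It likewise rose 1.75-fold (log2 fold change 0.81, SE 0.0959, adjusted p = 0.00104). Both genes stood at the 97th percentile of log2 fold changes among all genes tested. *Manf*, a small ER protein that is secreted under stress, measured 89.3, 105 and 81.1 CPM in WT and 125 to 148 CPM in *Tlr7* KO mice. It rose 1.48-fold (log2 fold change 0.57, adjusted p = 0.00447).

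*Bhlha15* measured 446, 524 and 433 CPM in WT mice. In *Tlr7* KO mice it measured 629, 705, 638, 624 and 697 CPM. It rose 1.41-fold (log2 fold change 0.49, SE 0.105, adjusted p = 0.00838), with no overlap between the groups. The stress factors at the end of the PERK branch did not pass the test. *Atf4* measured 136, 150 and 123 CPM in WT and 135 to 149 CPM in *Tlr7* KO mice, with a log2 fold change of 0.07 (95% interval -0.12 to 0.27, adjusted p = 0.54). *Ddit3*, which encodes CHOP, a factor that promotes cell death under lasting stress, was the lowest of the 10 genes. It measured 3.04, 2.49 and 3.25 CPM in WT and 2.48 to 4.14 CPM in *Tlr7* KO mice, from 59 to 119 and 47 to 109 counts (log2 fold change 0.25, 95% interval -0.16 to 0.66, adjusted p = 0.318). The *Ddit3* gene overlaps *Mars* on the other strand and a second annotated *Ddit3* locus on its own strand, and the strand setting of the counting is not given in the sources used here, so its count is uncertain.

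**Figure D1:**
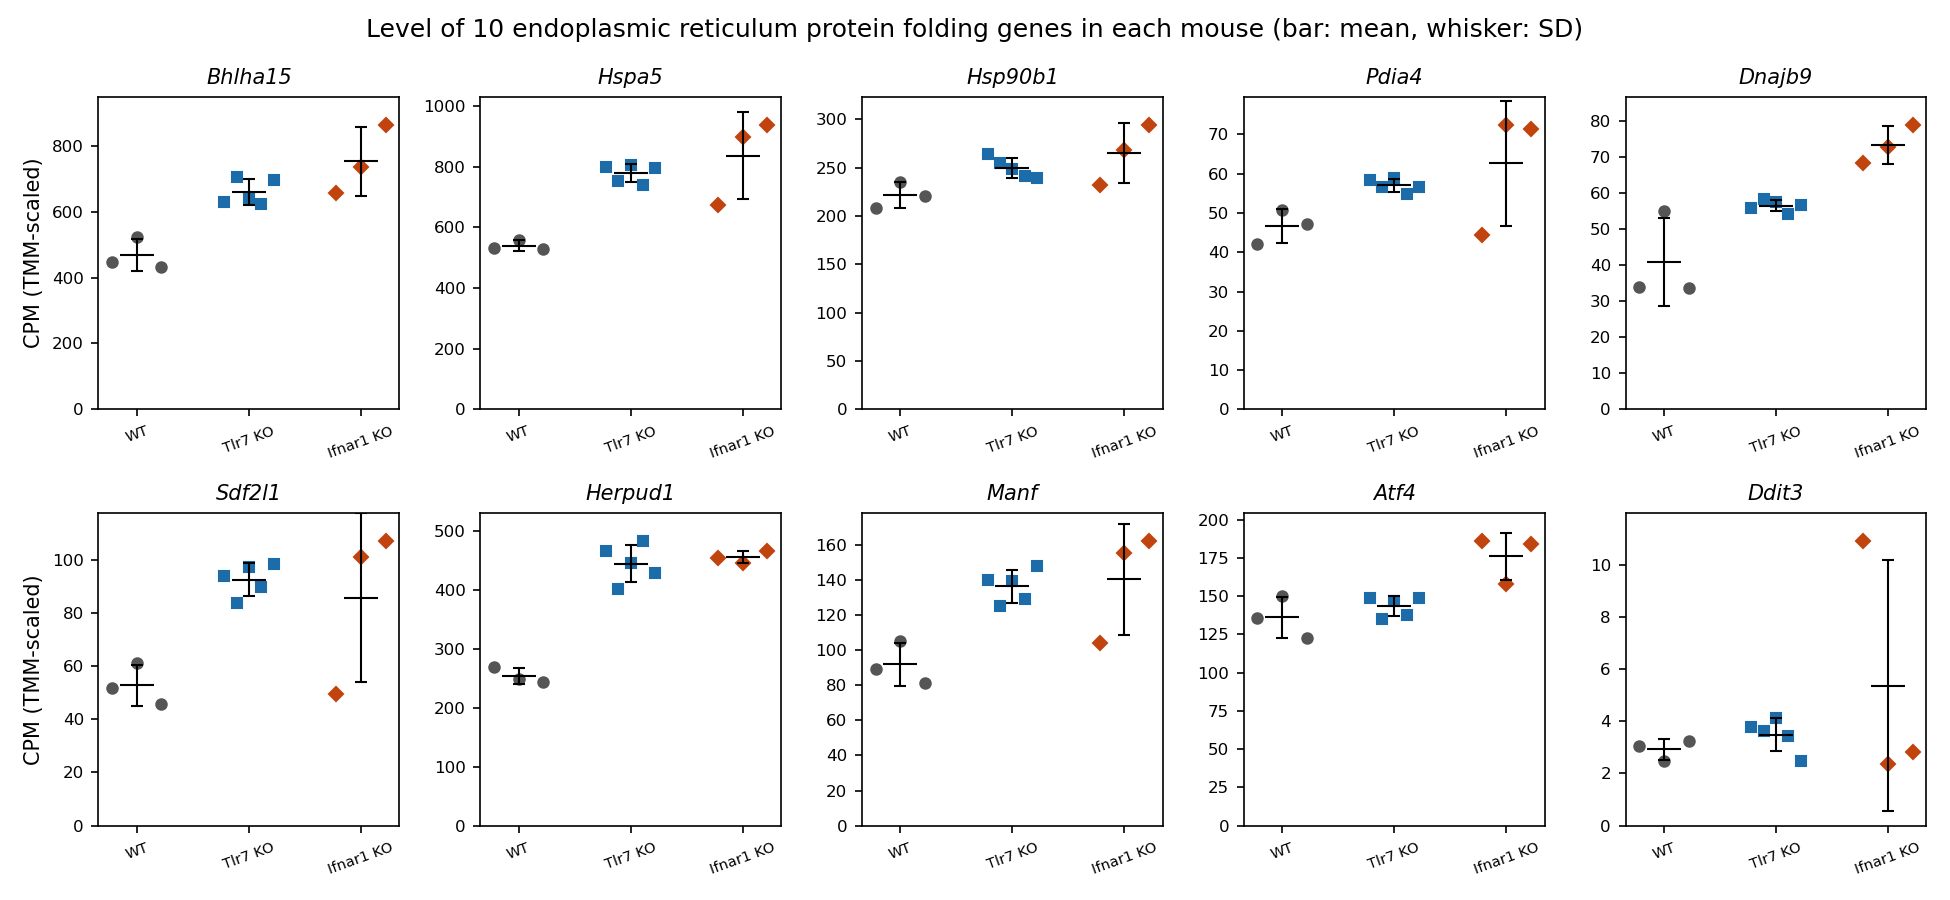
Level of each of the 10 genes in each mouse, in CPM scaled by TMM factors (vertical axes start at 0), with WT mice as circles, *Tlr7* KO mice as squares and *Ifnar1* KO mice as diamonds. Horizontal bars are group means and whiskers are SD (n = 3, 5 and 3). *Hspa5*, *Bhlha15* and *Herpud1* are separated between WT and both knockouts, and *Ifnar1* KO 1 sits below the other *Ifnar1* KO mice for *Sdf2l1*, *Pdia4* and *Manf* and far above them for *Ddit3*.

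Counted by overlap, 7 of the 10 genes had every *Tlr7* KO mouse above every WT mouse, where 16.6% of all genes tested did. *Hsp90b1* was among these 7 and *Dnajb9* was not. *Hspa5*, *Bhlha15*, *Sdf2l1*, *Herpud1* and *Manf* kept their call whichever 1 of the 8 mice was left out, and *Pdia4* lost it in 4 of the 8 fits. With library size alone no member was called by edgeR, and *Hsp90b1* (-0.32), *Pdia4* (-0.20), *Atf4* (-0.41) and *Ddit3* (-0.26) turned negative on the log2 scale. The 1 member with an unadjusted p under 0.05 was then *Atf4*, in the lower direction. The median of the 10 genes was then 0.02, which is 0.55 above that of all genes under the same scaling, beside 0.52 above under TMM. A change of scaling shifts nearly all genes alike, so this distance could hardly change and is no check on the rise. Scaling to 16 epithelial genes left 6 calls and put *Atf4* at -0.02.

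The promoters show which of these genes carry the sequence that the cleaved ATF6 and XBP1 recognise in chaperone genes. The ER stress element is CCAAT and CCACG separated by 9 bases, written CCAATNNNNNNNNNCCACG. Its second form, ERSE-II, has ATTGG and CCACG separated by 1 base. Both were searched on both strands in windows from 250 bases before to 50 bases after the RefSeq start (GRCm38.p6), of which there were 32851 for 27025 genes, and 9 of the 10 genes had a window. The ER stress element was in 39 windows (0.119%), which belonged to 37 genes, and *Hspa5* and *Hsp90b1* were 2 of them. *Hsp90b1* held it on each strand, starting 212 and 107 bases before the start. The second form was in 12 windows (0.0365%), among them that of *Herpud1*, 52 bases before the start. Stretches with matches in capitals are shown for *Hspa5*, *Hsp90b1* and *Herpud1*, which hold these forms, and for *Dnajb9*, which holds neither but has a shorter core. The *Hsp90b1* and *Herpud1* stretches end before the first annotated base of the gene in GENCODE M21, and those of *Hspa5* and *Dnajb9* lie within the extent of the gene. In *Herpud1* the capitals further mark TGATGNAA, a form of the element bound by ATF4, on the opposite strand (3.97% of windows).

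*Hspa5* (chr2:34772020-34772049, + strand): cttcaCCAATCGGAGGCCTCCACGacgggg
*Hsp90b1* (chr10:86705510-86705694, - strand): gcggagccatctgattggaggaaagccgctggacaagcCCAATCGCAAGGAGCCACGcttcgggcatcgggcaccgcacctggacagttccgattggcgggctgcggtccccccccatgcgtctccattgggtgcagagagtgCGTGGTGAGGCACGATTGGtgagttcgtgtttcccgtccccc
*Herpud1* (chr8:94386179-94386428, + strand): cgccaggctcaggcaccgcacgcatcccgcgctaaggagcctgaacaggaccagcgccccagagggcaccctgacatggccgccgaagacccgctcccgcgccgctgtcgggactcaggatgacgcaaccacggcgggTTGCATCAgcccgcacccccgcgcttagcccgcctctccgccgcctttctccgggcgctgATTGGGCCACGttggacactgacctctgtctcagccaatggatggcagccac
*Dnajb9* (chr12:44210159-44210188, - strand): aacaacagttttCCACGTgcgcgtagggcg

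The capitals in *Dnajb9* mark the core ACGTGG of XBP1 binding sites on the opposite strand, a short motif found in 8.31% of windows. *Herpud1* holds that core too, overlapping its second-form element. Neither form of the ER stress element was found in the windows of *Bhlha15*, *Pdia4*, *Sdf2l1*, *Dnajb9*, *Atf4* or *Ddit3*, which says only that these letters are not in that window. A match is a description and not a bound site. Among the other ER folding genes listed below, 5 of 20 with a window held the ER stress element (*Calr*, *Canx*, *Creld2*, *Dnajc3* and *Pdia6*), and among the sensor and degradation genes 2 of 21 did (*Derl3* and *Syvn1*). The second form was in *Dnajb11* among those folding genes and in none of the 21 sensor and degradation genes. None of 24 ISR targets or 22 translocon genes held either form. TGATGNAA was in 9 of those 24 ISR targets and in none of the 22 translocon genes. It was in 2 of the 20 folding genes and 1 of the 21 sensor and degradation genes. The TGATGNAA search was added after the fold changes had been seen.

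The second question was whether these genes differed between WT and *Ifnar1* KO lacrimal glands. Of the 10 genes, 3 were up-regulated in *Ifnar1* KO glands: *Bhlha15*, *Dnajb9* and *Herpud1*. Over all genes tested, 6.76% were called higher and 12.4% lower. All 10 fold changes were again positive, with a median log2 fold change of 0.64 beside -0.02 over all genes. *Herpud1* rose 1.77-fold (454, 445 and 465 CPM, log2 fold change 0.82, SE 0.150, adjusted p = 0.0229). *Dnajb9* rose 1.77-fold (68.3, 72.9 and 79.0 CPM, log2 fold change 0.83, SE 0.203, adjusted p = 0.0338). *Bhlha15* rose 1.59-fold (658, 736 and 863 CPM, log2 fold change 0.67, SE 0.193, adjusted p = 0.0499). For each of these genes the 3 *Ifnar1* KO mice lay above the 3 WT mice.

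The 7 other genes did not pass the test. *Hspa5* gave a log2 fold change of 0.61 (95% interval 0.15 to 1.08, adjusted p = 0.0672) and *Manf* 0.60 (0.12 to 1.08, adjusted p = 0.078). *Sdf2l1* gave 0.68 (0.01 to 1.36, adjusted p = 0.131) and *Pdia4* 0.41 (-0.07 to 0.88, adjusted p = 0.185). The mouse that lay apart was *Ifnar1* KO 1, in which *Sdf2l1* measured 49.4 CPM, within the WT range, while *Ifnar1* KO 2 and *Ifnar1* KO 3 measured 101 and 107 CPM. *Hsp90b1* gave 0.24 (adjusted p = 0.313). *Atf4* measured 186, 158 and 184 CPM, above all WT mice, with a log2 fold change of 0.35 (95% interval 0.00 to 0.70, adjusted p = 0.132). *Ddit3* gave 0.84 with an interval of -0.47 to 2.15 (adjusted p = 0.308), and -0.19 without *Ifnar1* KO 1.

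By overlap, 5 of the 10 genes had every *Ifnar1* KO mouse above every WT mouse, beside 20.7% of all genes tested. No member was called by edgeR when WT 1, WT 3, *Ifnar1* KO 1 or *Ifnar1* KO 3 was left out, where 3778 to 4383 genes of all tested still had an unadjusted p under 0.05, and 3, 4, 7 and 3 of the 10 members did in that order. Over the 6 fits that left out 1 mouse the log2 fold change was 0.79 to 0.87 for *Herpud1*, 0.71 to 1.09 for *Dnajb9* and 0.54 to 0.77 for *Bhlha15*. Without *Ifnar1* KO 2 only *Herpud1* was called, and without WT 2 the 3 genes kept their call and *Hspa5* and *Manf* were called too. DESeq2 called 5 members, and 1 fit over all 11 mice called 8. With library size alone no member was called by edgeR, 2 had an unadjusted p under 0.05, both in the higher direction, and only *Hsp90b1* turned negative (-0.06).

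**Figure D2:**
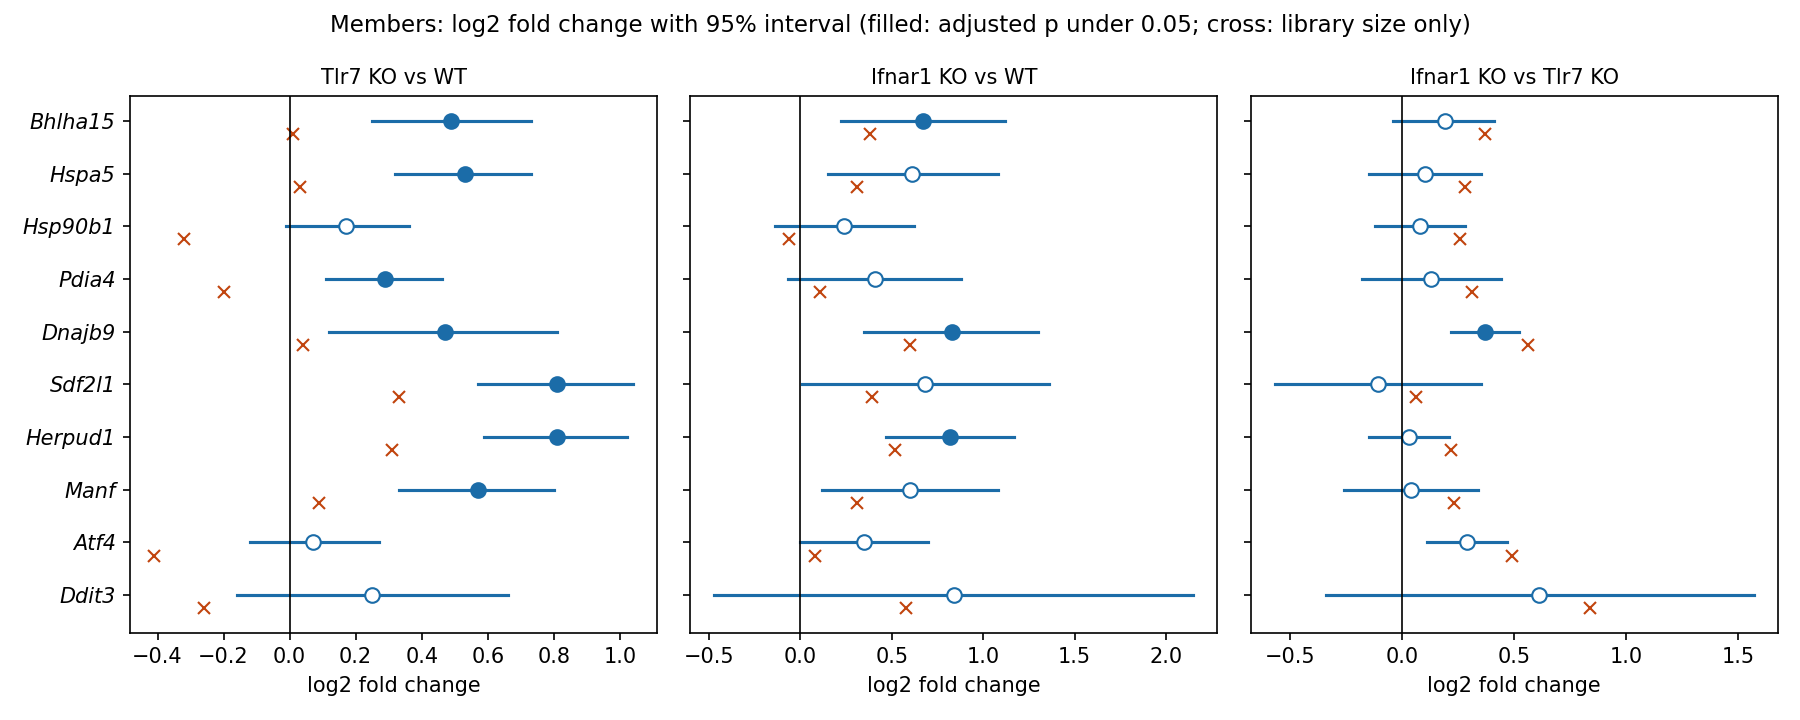
Log2 fold change of each of the 10 genes in each comparison (circles, filled where the adjusted p was under 0.05) with its 95% interval (lines) and the log2 fold change with scaling by library size alone (crosses). The circles lie right of 0 for all 10 genes in both comparisons with WT, the crosses of *Hsp90b1*, *Pdia4*, *Atf4* and *Ddit3* lie left of 0 for *Tlr7* KO, and only *Dnajb9* is filled between the knockouts.

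The knockouts were then compared directly, since the comparisons with WT share their control mice. *Dnajb9* was the only member that passed the test, at 56.6 ± 1.53 CPM (SD, n = 5) in *Tlr7* KO and 73.4 ± 5.39 CPM (SD, n = 3) in *Ifnar1* KO glands. It was 1.29-fold higher in *Ifnar1* KO (log2 fold change 0.37, 95% interval 0.22 to 0.52, adjusted p = 0.0275), and 0.868% of all genes tested were called higher there. All 3 *Ifnar1* KO mice lay above all 5 *Tlr7* KO mice for *Dnajb9* and also for *Atf4*, whose log2 fold change of 0.29 (95% interval 0.11 to 0.47) did not pass the test (adjusted p = 0.108). The share of all genes separated in this way was not counted, so the separation is a description only. The *Dnajb9* call was lost in 5 of the 8 fits that left out 1 mouse, with log2 fold changes from 0.31 to 0.42. For *Herpud1* the difference was 0.03 (95% interval -0.15 to 0.21), for *Hsp90b1* 0.08 (-0.12 to 0.28), for *Hspa5* 0.10 (-0.15 to 0.35) and for *Bhlha15* 0.19 (-0.04 to 0.41). Differences of *Sdf2l1* (-0.11, interval -0.57 to 0.35) and *Ddit3* (0.61, interval -0.34 to 1.57) had intervals on both sides of 0.

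One mouse, *Ifnar1* KO 1, stood apart in the members and in the genes around them, which was seen in the data and is a description. *Ddit3* measured 10.9 CPM (320 counts) in it, against 2.35 and 2.81 CPM (63 and 67 counts) in *Ifnar1* KO 2 and *Ifnar1* KO 3 and at most 4.14 CPM in any other mouse. In the second deposited count table the same 3 mice had 228, 45 and 49 *Ddit3* counts. Several chaperone genes were at the other end in this mouse, compared with the other knockouts. It was the lowest of the 8 knockout mice for *Hspa5* (674 CPM), *Hsp90b1* (232 CPM), *Pdia4* (44.3 CPM), *Sdf2l1* (49.4 CPM) and *Manf* (104 CPM), which are 5 of the 10 members, beside 16% of all genes tested. *Herpud1*, at 454 CPM, was level with its group, and *Dnajb9*, at 68.3 CPM, lay above every *Tlr7* KO mouse.

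The ISR targets are a list of 29 genes, most of which ATF4 or CHOP is known to turn on. In *Ifnar1* KO 1, 21 of them (72.4%) were highest of all 11 mice, beside 15.4% of all genes tested. *Atf5*, another stress factor whose mRNA is translated under ISR, measured 84.3 CPM in this mouse and 11.5 and 24.2 CPM in the other *Ifnar1* KO mice. *Asns*, asparagine synthetase, measured 92.6, 33.3 and 69.3 CPM, and *Trib3*, a pseudokinase that restrains ATF4, measured 30, 3.21 and 2.39 CPM. These genes were chosen after their values were seen. *Slc7a5* and *Slc3a2*, the chains of a large neutral amino acid transporter, measured 442 and 284 CPM in *Ifnar1* KO 1, 273 and 164 CPM in *Ifnar1* KO 2, and 375 and 256 CPM in *Ifnar1* KO 3. *Ern1* was also highest in *Ifnar1* KO 1, at 102 CPM against 33.2 to 62.9 CPM in the other 10 mice, while *Eif2ak3* was lowest of the knockouts at 31.7 CPM.

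**Figure D3:**
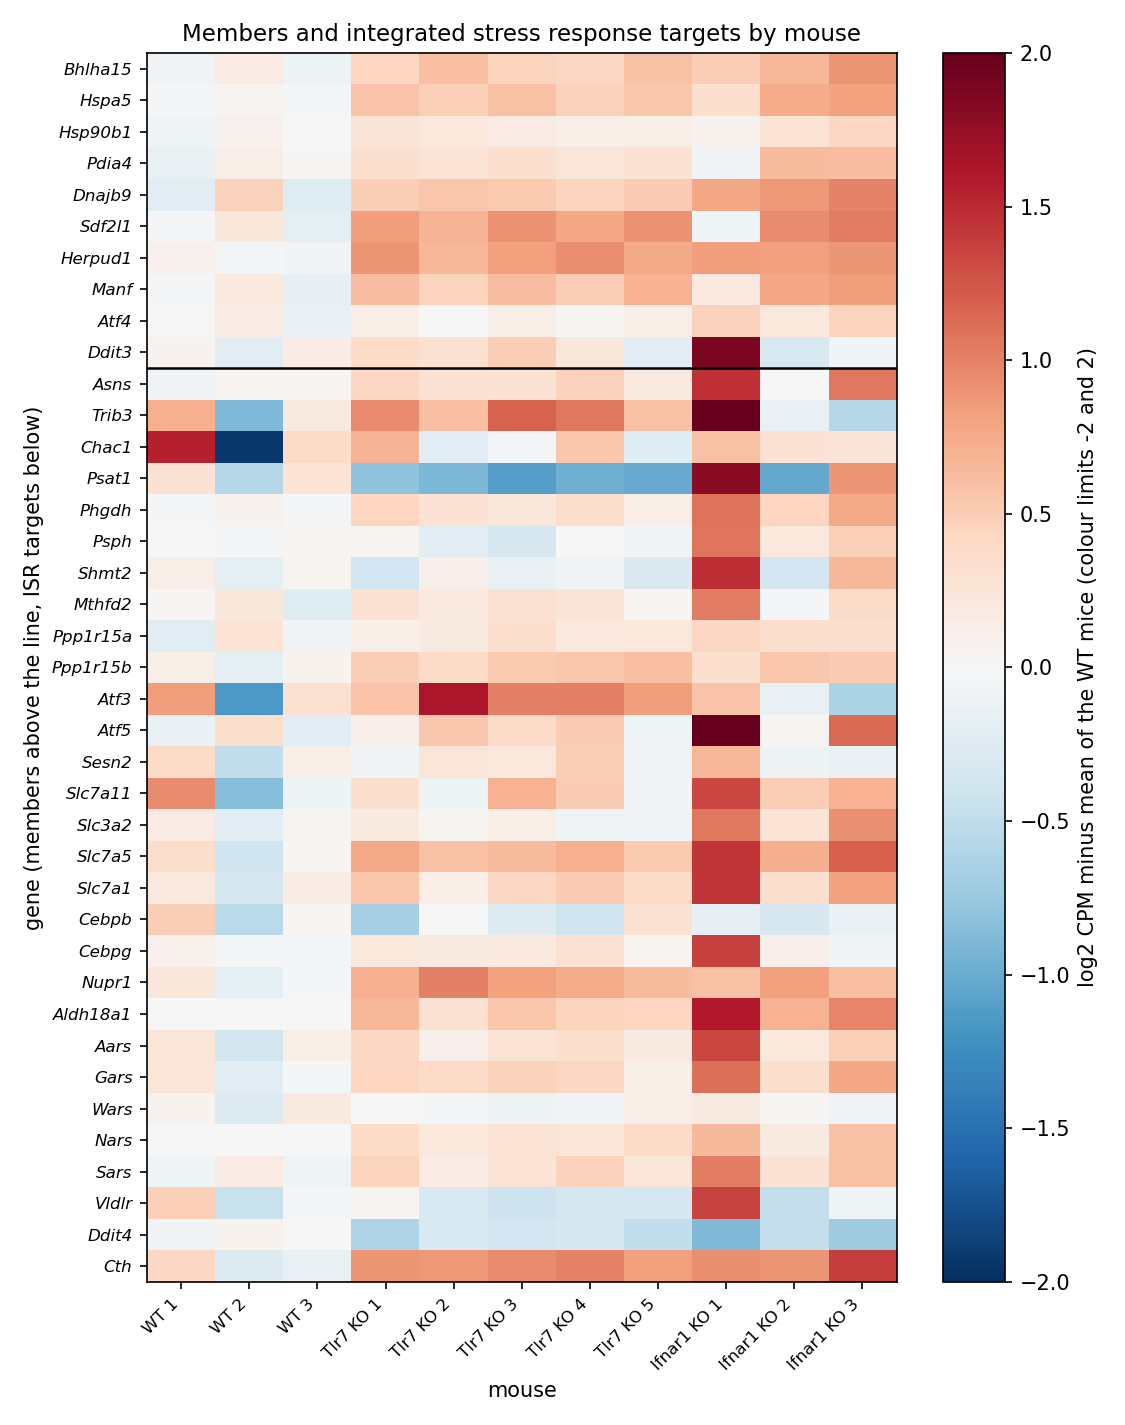
Log2 CPM of the 10 members (above the line) and of 29 ISR targets (below it) in each of the 11 mice, as the difference from the mean of the WT mice (red higher, blue lower, colour limits -2 and 2). Of the first 8 members, *Hsp90b1* and *Pdia4* are pale in most knockout mice and the others are red in nearly all of them. *Ifnar1* KO 1 is pale for *Pdia4* and *Sdf2l1*, and the ISR targets are deepest red in *Ifnar1* KO 1, where 21 of the 29 were highest of all mice.

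The rest of the pathway was read from lists that hold no member and were written with earlier results of these data known, so their counts are a description. Of 24 other ER folding genes, 15 were higher in *Tlr7* KO glands (15.3% of all genes), 9 were not called and 22 were positive, with a median log2 fold change of 0.37. The largest was *P4hb* (0.67, group means 1219 and 1944 CPM, adjusted p = 0.00986), which encodes a protein disulfide isomerase. It was followed by *Calr* (0.65, 479 and 754 CPM, adjusted p = 0.00238), a lectin chaperone of glycoproteins, and *Pdia6* (0.58, 85.9 and 128 CPM, adjusted p = 0.00143). In *Ifnar1* KO glands edgeR called none of the 24, although 22 were positive, the median was 0.43 and 11 had an unadjusted p under 0.05, beside 37.6% of all genes tested. There *P4hb* gave 0.69 (adjusted p = 0.0752), *Calr* 0.71 (adjusted p = 0.0707) and *Pdia6* 0.42 (adjusted p = 0.182). DESeq2 called 7 of the 24 higher, beside 1262 of 13923 genes in all, and 1 fit over all 11 mice called 16, beside 2458 of 13937. With library size alone 7 of the 24 were positive in *Tlr7* KO (median -0.09) and 18 in *Ifnar1* KO glands (median 0.16).

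Among 25 genes of the stress sensors and of ER-associated degradation, 15 were higher in *Tlr7* KO and 7 in *Ifnar1* KO glands (15.3% and 6.76% of all genes), with medians of 0.32 and 0.35. *Derl3*, a channel component that passes misfolded protein to the cytosol, rose in both (0.83, adjusted p = 0.00204 and 0.87, adjusted p = 0.04). *Sel1l*, which holds the degradation complex together, rose by 0.77 and 0.74 in the same order (adjusted p = 0.00063 and 0.0222). *Wfs1*, an ER calcium regulator, rose by 0.62 (adjusted p = 0.00116) and 0.74 (adjusted p = 0.0234). Of the sensors, *Ern1* rose in *Tlr7* KO (0.64, adjusted p = 0.00228) and *Ifnar1* KO glands (1.06, adjusted p = 0.0235). *Eif2ak3* rose by 0.38 (adjusted p = 0.0174) and *Atf6* by 0.28 (adjusted p = 0.0165) in *Tlr7* KO glands, and gave 0.22 (adjusted p = 0.438) and 0.31 (adjusted p = 0.101) in *Ifnar1* KO glands. *Xbp1* gave 0.20 (adjusted p = 0.241) and 0.08 (adjusted p = 0.815). These are total *Xbp1* counts, and its spliced form was not analysed here.

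The translocon list, with signal peptidase and oligosaccharyltransferase subunits, moved in the same direction. All 28 genes were positive in both comparisons with WT, with 17 called higher in *Tlr7* KO (median 0.40, beside 15.3% of all genes) and 5 in *Ifnar1* KO glands (median 0.43, beside 6.76%). That direction depended on the scaling. With library size alone 12 of the 28 were positive in *Tlr7* KO (median -0.07) and 23 in *Ifnar1* KO glands (median 0.16). The values that follow are with TMM factors. *Spcs3*, a signal peptidase subunit, rose by 0.70 (adjusted p = 0.00217) and 0.69 (adjusted p = 0.0311), and *Ssr1*, of the translocon-associated complex, by 0.53 (adjusted p = 0.00238) and 0.59 (adjusted p = 0.0301). *Rpn2*, an oligosaccharyltransferase subunit, rose by 0.52 (adjusted p = 0.00325) and 0.55 (adjusted p = 0.0404), and *Ssr3* rose by 0.55 in *Tlr7* KO glands (adjusted p = 0.0124) and gave 0.47 in *Ifnar1* KO glands (adjusted p = 0.132). The list of acinar secretory genes was mixed. Of its 20 genes tested, 6 were higher and 2 lower in *Tlr7* KO glands (median 0.21), and 4 were higher and 3 lower in *Ifnar1* KO glands (median 0.26). Over all genes 15.3% were higher and 17.4% lower in the first comparison, and 6.76% and 12.4% in the second. *Pigr*, which carries IgA across the epithelium, rose by 0.99 (adjusted p = 0.00124) and 1.17 (adjusted p = 0.0225), and *Slc12a2*, the basolateral chloride cotransporter, fell by 0.71 (adjusted p = 0.0109) and 0.82 (adjusted p = 0.0374). *Sytl1*, of granule docking, rose by 0.59 (adjusted p = 0.00704) and 0.67 (adjusted p = 0.0253), and *Creb3l1*, a factor for secretory pathway genes, by 0.41 (adjusted p = 0.0167) and 0.79 (adjusted p = 0.0316).

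Of the 29 ISR targets, 10 were higher and 2 lower in *Tlr7* KO glands (median 0.24), and 4 were higher and 1 lower in *Ifnar1* KO glands (median 0.64), against the same shares of all genes. Without *Ifnar1* KO 1 the median in *Ifnar1* KO glands was 0.36 and the 4 called higher became 0, a fit in which edgeR called no gene of any kind while 4383 had an unadjusted p under 0.05. In *Tlr7* KO and then *Ifnar1* KO glands, *Slc7a5* rose by 0.61 (adjusted p = 0.0166) and 1.09 (adjusted p = 0.0327). *Aldh18a1*, of proline synthesis, rose by 0.48 (adjusted p = 0.00422) and 1.12 (adjusted p = 0.0235), and *Cth*, of cysteine synthesis, by 0.88 (adjusted p = 0.00396) and 1.04 (adjusted p = 0.0291). *Nupr1*, a stress-induced chromatin protein, rose by 0.77 in *Tlr7* KO glands (adjusted p = 0.00335) and gave 0.63 in *Ifnar1* KO glands (adjusted p = 0.0507). *Ppp1r15b*, which reverses the translational block, rose by 0.50 in *Tlr7* KO glands (adjusted p = 0.00429) and gave 0.43 in *Ifnar1* KO glands (adjusted p = 0.0629). Between the knockouts *Slc3a2* was the only gene of the 5 lists that passed the test (0.73, adjusted p = 0.0414). In 7 of the 8 fits that left out 1 mouse no ISR target was called higher, and in the fit without *Ifnar1* KO 2 there were 13. With all mice the median of the ISR targets was 0.43, and it was 0.12 without *Ifnar1* KO 1. The medians of the folding, degradation and translocon lists were 0.03 or 0.04 (-0.05 to 0.09 with 1 *Ifnar1* KO mouse left out). In that comparison 16 of the 29 ISR targets were higher and 2 lower at an unadjusted p under 0.05, beside 16.3% of all genes tested in either direction. Without *Ifnar1* KO 1 these counts were 6 and 2. With all mice DESeq2 called 6 of the 29 higher and 1 lower, beside 577 of 13608 genes in all.

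**Figure D4:**
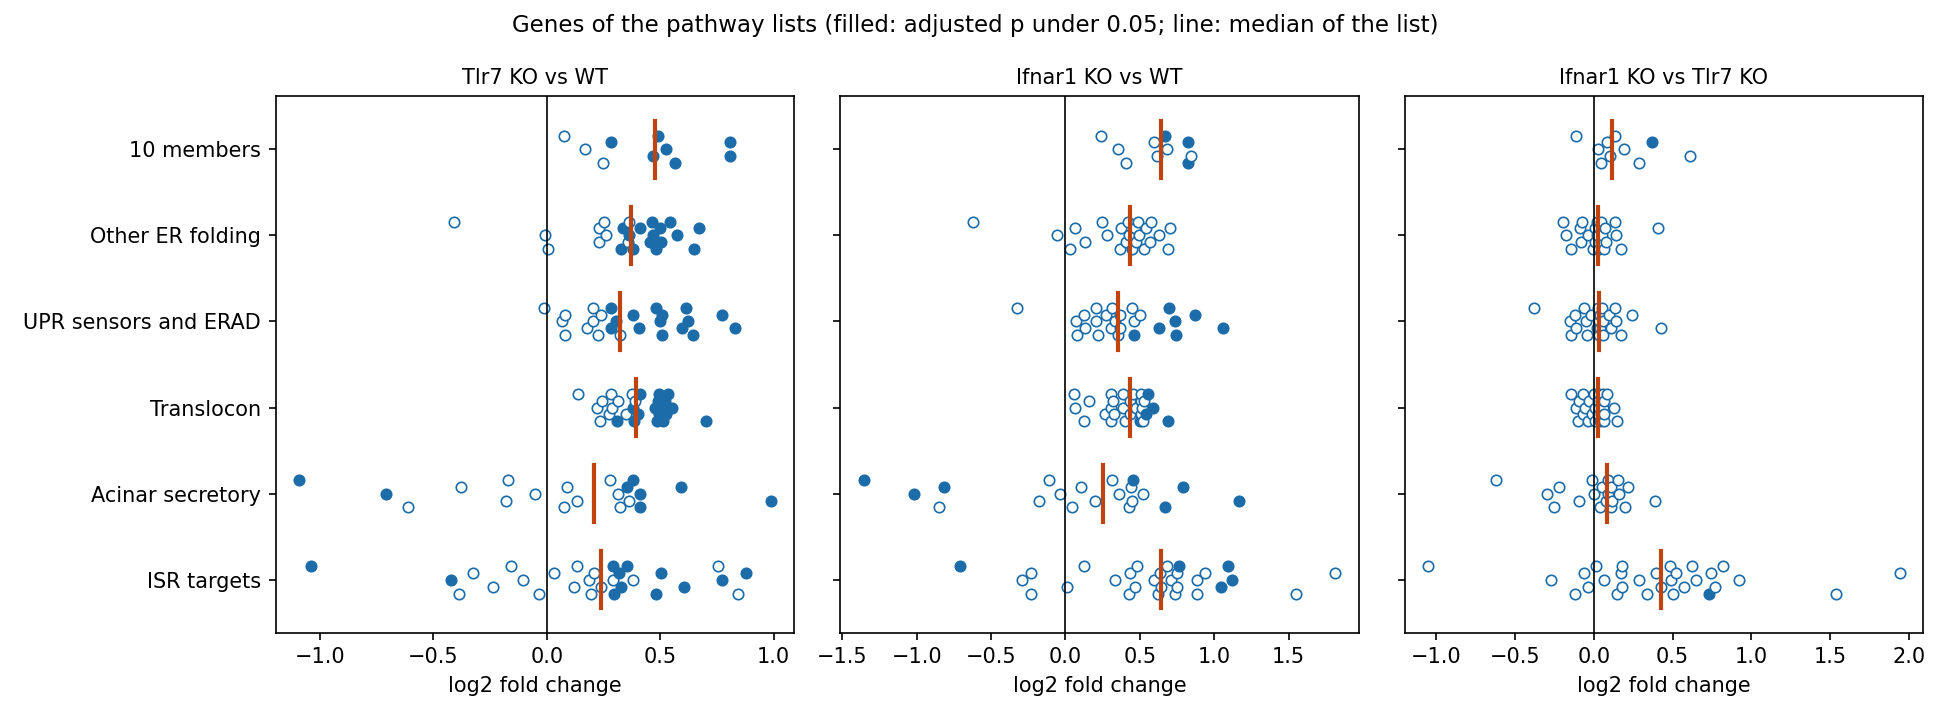
Log2 fold change of every tested gene of the 10 members and of the 5 pathway lists in each comparison (points, filled where the adjusted p was under 0.05), with the median of each list as a vertical line. In *Tlr7* KO against WT the folding, degradation and translocon lists lie mostly right of 0, with medians of 0.37, 0.32 and 0.40 (-0.09, -0.14 and -0.07 with library size alone). Between the knockouts the medians of these lists are 0.03 to 0.04 while that of the ISR targets is 0.43 (0.12 without *Ifnar1* KO 1).

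The list counts moved with the mice included. In *Tlr7* KO against WT the moves by more than 1.5 times came with WT mice left out. The folding list had 8 genes called higher without WT 1 or without WT 3, the translocon list 11 without WT 1 and 28 without WT 2, and the acinar secretory list 3 without WT 1 and 10 without WT 2. The degradation list had 9 and the ISR list 6 without WT 3. In *Ifnar1* KO against WT, edgeR called no gene of the 5 lists higher when WT 1, WT 3, *Ifnar1* KO 1 or *Ifnar1* KO 3 was left out. Without *Ifnar1* KO 2 the folding, degradation, ISR, translocon and acinar secretory lists had 0, 3, 12, 0 and 1 genes called higher, and without WT 2 they had 10, 14, 7, 22 and 10. Over these 6 fits the median log2 fold change of the folding list was 0.35 to 0.52, that of the degradation list 0.28 to 0.49 and that of the translocon list 0.36 to 0.55. With library size alone edgeR called no gene of the folding, degradation, translocon or ISR lists higher in either comparison with WT. At most 2 genes of a list then had a positive change with an unadjusted p under 0.05. The medians of these lists, in that order, turned to -0.09, -0.14, -0.07 and -0.25 in *Tlr7* KO glands. In *Ifnar1* KO glands they were 0.16, 0.09, 0.16 and 0.34. Against all genes under that scaling, the medians of the folding and translocon lists were 0.44 and 0.46 in *Tlr7* KO and 0.47 and 0.48 in *Ifnar1* KO glands. Such distances hardly change with the scaling, so they do not check the direction of the lists.

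Levels can be set between genes only per length. On a scale of CPM per kilobase of the longest coding transcript, WT means ran from 147 for *Hspa5*, 134 for *Bhlha15* and 129.6 for *Herpud1*, through 78.8 for *Atf4* and 78.2 for *Hsp90b1*, 47.7 for *Sdf2l1* and 40.9 for *Manf*, to 19.5 for *Pdia4*, 16.6 for *Dnajb9* and 3.29 for *Ddit3*. The neighbours *Hspa5*, *Bhlha15* and *Herpud1*, *Atf4* and *Hsp90b1*, *Sdf2l1* and *Manf*, and *Pdia4* and *Dnajb9* differed, each from the next, by less than the larger of their SDs. In *Tlr7* KO glands *Herpud1* at 227 and *Hspa5* at 212 were the highest and differed by less than the larger of their SDs. The coefficient of variation between *Tlr7* KO mice ran from 2.71% for *Dnajb9* to 7.12% for *Herpud1* and 17.8% for *Ddit3*, and between *Ifnar1* KO mice it ran from 2.15% for *Herpud1* to 36.9% for *Sdf2l1* and 89.8% for *Ddit3*.

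The genes most like a member were found by Pearson's r of log2 CPM over the 11 mice among the 5050 other genes whose mean reached 10 CPM (5051 for *Ddit3*, whose own mean did not), as a description, since the mice share group differences and scaling. For *Hspa5* these were *Syvn1* (0.994), the ubiquitin ligase of ER-associated degradation, *Gfpt1* (0.990), the first enzyme of the hexosamine pathway, *Calr* (0.986), *Pdia3* (0.984) and *Ap3m1* (0.984). For *Bhlha15* they were *Preb* (0.972), the exchange factor that starts COPII vesicles, *Rrn3* (0.969), *Tex261* (0.968), *Pgd* (0.963) and *Hddc3* (0.962). For *Ddit3* they were *Rai14* (0.937), *Cebpg* (0.937), a partner of ATF4, *Ncoa6* (0.932), *Ipo9* (0.918) and *Rcc2* (0.913). These rested on *Ifnar1* KO 1, and over the 10 other mice r was 0.707, 0.590, 0.721, 0.552 and 0.395 in that order, a calculation added after the data were seen. For *Atf4* they were *Aff4* (0.945), *Hax1* (0.943), *Vmn1r65* (0.937), *Stk25* (0.936) and *Pcbp1* (0.932).

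Other cell types moved with the groups. Plasma cells, which also carry much ER, had 14 markers measured that summed to 2697 to 3320.1 CPM in WT, 858 to 1496 CPM in *Tlr7* KO and 1759.9 to 3228 CPM in *Ifnar1* KO mice. In *Tlr7* KO glands 10 of these 14 were lower and 2 higher, beside 17.4% and 15.3% of all genes. In *Ifnar1* KO glands 5 were lower, 1 was higher and 8 were not called, beside 12.4% and 6.76%, and the summed levels overlapped those of WT. The 10 B cell markers summed to 90.1 to 314 CPM in WT, 6.91 to 55.1 CPM in *Tlr7* KO and 2.68 to 22.8 CPM in *Ifnar1* KO mice, and all 10 were lower in both knockouts, beside 17.4% and 12.4% of all genes. The 14 T cell markers summed to 35.1 to 111 CPM in WT, 9.19 to 43.6 CPM in *Tlr7* KO and 2.18 to 20.4 CPM in *Ifnar1* KO mice, and 11 and 12 of them were lower and none higher. The 12 duct and myoepithelial markers summed to 548 to 774 CPM in WT, 479.5 to 562 CPM in *Tlr7* KO and 459 to 592 CPM in *Ifnar1* KO mice. By gene, 8 of these 12 were lower in *Tlr7* KO (median log2 fold change -0.72) and 4 in *Ifnar1* KO glands (median -0.62), and none was higher. The 16 epithelial genes summed to 970.2 to 1179 CPM in WT, 1217 to 1349 CPM in *Tlr7* KO and 1285 to 1323 CPM in *Ifnar1* KO mice, so their sum was above that of every WT mouse in every knockout mouse. By gene, 6 were higher, 1 lower and 9 not called in *Tlr7* KO, and 2 higher and 14 not called in *Ifnar1* KO glands. With these genes as the reference 6 members were called higher in *Tlr7* KO and 2 in *Ifnar1* KO glands. The part of cell makeup in the members' levels was not tested by that scaling or otherwise, nor was that of the salivary gland and muscle transcripts of single mice.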

How the data were processed

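RNA from whole lacrimal glands was sequenced by the authors on a HiSeq instrument, aligned to mm10 with HISAT2 2.1.0 per the labels, and quantified with salmon and tximport. The estimated counts deposited by the authors, rounded to whole numbers, cover 19058 genes. Its name calls the values normalized, yet library totals are unequal in it, and it was used as counts. The second deposited table of whole-number counts served as an alternative, and 1 column with no matching sample was not used. The study dropped 1 *Ifnar1* KO mouse as an outlier, on a principal component plot and inflammation scores. That mouse grouped with WT and its inflammation was at the WT level. The *Ifnar1* KO group was thus partly chosen on expression and inflammation. Labels do not say whether mice were littermates, and p-values measure the spread between these mice.

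R 4.3.3, edgeR 4.0.16 (TMM, quasi-likelihood test, 2-sided) and DESeq2 1.42.0 were used. Genes with at least 30 summed counts over the WT mice were tested, in a separate fit per comparison, and p-values were adjusted by Benjamini-Hochberg over the 13937 genes. CPM in the text use TMM factors over all 11 mice, and correlations used log2 CPM with a prior count of 2. Precision from depth covers counting error only. On simulated counts for *Tlr7* KO against WT (13353 genes), 36% of 50 genes changed 2-fold and 6% of 50 changed 1.5-fold were called. For *Ifnar1* KO against WT (13333 genes) these shares were 50% and 2%. The simulations changed only 50 randomly drawn genes at each fold change, while 4566 genes were called in *Tlr7* KO against WT in the data. With so few changed genes the adjustment is harsher, so these shares do not give the chance of calling a member. Gene models are GENCODE M21 on GRCm38, and promoter sequences are RefSeq's on GRCm38.p6, matched by symbol.

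The members and lists were chosen with earlier results of these data known. The named genes are the members, *Tlr7*, *Ifnar1*, *Ern1*, *Eif2ak3*, *Atf6*, *Xbp1*, per pathway list and comparison the 3 called genes with the largest change (10 CPM or more in the group with the higher mean), and the 5 genes most correlated with *Hspa5*, *Bhlha15*, *Atf4* and *Ddit3*. Others were chosen after their values were seen, among them *Aqp5*, *Rab3d* and genes named for a promoter match. Alternatives were other scalings, filters, tools, the second table, GC and length offsets, a replicate block and leaving out each mouse.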

Additional observations from a re-analysis of the deposited data

Results flagged for a closer look

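*Dnajb9* was picked out because its level differed between the knockouts themselves, with a log2 fold change of 0.37 in *Ifnar1* KO against *Tlr7* KO glands (edgeR, adjusted p = 0.0275). All 3 *Ifnar1* KO mice lay above all 5 *Tlr7* KO mice, but the share of all genes that did so was not counted. The adjusted p over the alternatives that kept all mice ran from 6.53e-05 to 0.29, and the log2 fold change from 0.32 to 0.56.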

How the results depend on the processing

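In *Tlr7* KO against WT, 155 of 190 refitted log2 fold changes of members kept direction and side of the threshold. The 7 members called became 0 with library size only and 0 with the replicate block. The 4566 genes called became 1970 at an adjusted p under 0.01 and 14 with the block. Leaving out 1 mouse gave 2602 to 6664 genes, 5 to 8 members, and 8 to 22 folding, 9 to 22 degradation, 6 to 12 ISR, 11 to 28 translocon and 3 to 10 acinar secretory genes called higher. The lists had 0, 0, 0, 0 and 1 with library size only, in that order, and the ISR list 4 with the epithelial reference. *Hsp90b1* (-0.32), *Pdia4* (-0.20), *Atf4* (-0.41) and *Ddit3* (-0.26) reversed with library size only, and *Atf4* (-0.02) with the epithelial reference. Library size alone left 2.8% of calls higher in place of 46.8%, and the epithelial reference 32.9%.

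In *Ifnar1* KO against WT, 136 of 170 kept both. The 2677 genes and 3 members called became 1340 and 0 with library size only, 5124 and 8 in a single fit over all mice, 0 and 0 with the replicate block, and 1 and 0 at an adjusted p under 0.01, and DESeq2 called 5 members. Leaving out 1 mouse gave 0 to 4666 genes, 0 to 5 members, and 0 to 10 folding, 0 to 14 degradation, 0 to 12 ISR, 0 to 22 translocon and 0 to 10 acinar secretory genes called higher. The degradation, ISR, translocon and acinar lists had 0, 0, 0 and 1 with library size only and 2, 2, 1 and 2 with the epithelial reference. *Hsp90b1* (-0.06) reversed with library size only and *Ddit3* (-0.19) without *Ifnar1* KO 1 (1.2 without *Ifnar1* KO 2). Library size alone left 3.8% of calls higher in place of 35.2%, the epithelial reference 15.8%, and the single fit over all mice 48.0%.

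Between the knockouts, 170 of 190 kept both. The 250 genes called became 577 with DESeq2, 93 in that single fit, 502 with the block and 30 at an adjusted p under 0.01. The 1 member called became 2 with DESeq2 and 0 with library size only, the epithelial reference, the single fit, the block or an adjusted p under 0.01. Leaving out 1 mouse gave 85 to 877 genes, 0 to 2 members, 0 to 1 folding genes and 0 to 13 ISR targets, and library size only gave 2 ISR targets. *Sdf2l1* reversed with library size only (0.06) and without *Ifnar1* KO 1 (0.16, with -0.30 without *Ifnar1* KO 3), *Herpud1* with the epithelial reference (-0.02) and without *Tlr7* KO 2 (0.00), *Ddit3* without *Ifnar1* KO 1 (-0.45, with 0.97 without *Ifnar1* KO 2), *Manf* without *Ifnar1* KO 2 (-0.04) or 3 (-0.07, with 0.22 without *Ifnar1* KO 1), and *Hsp90b1* without *Ifnar1* KO 3 (0.00). Library size alone left 69.4% of calls higher in place of 48.4%, and the block 26.7%. Same-numbered mice had correlations of -0.44 to 0.34 between their deviations from group means, and differently numbered mice -0.44 to 0.38. With so few mice per group these values cannot decide whether the numbers pair the mice. The block leaves fewer residual degrees of freedom. Apart from that and from fits with fewer mice, the cause was not tested. List counts and medians under other settings were added after the data were seen.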

Other observations

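The deposited tables also hold signs of handling and of other tissue, given as values. Immediate early and heat shock genes summed to 358 to 457 CPM in WT, 211 to 505 CPM in *Tlr7* KO and 229 to 363 CPM in *Ifnar1* KO mice, and *Tlr7* KO 2 was the highest of the 11. Myeloid markers summed to 311 to 563 CPM in WT, 229 to 291 CPM in *Tlr7* KO and 82.8 to 214 CPM in *Ifnar1* KO mice, and 8 and 7 of the 12 were lower in the knockouts and none higher. Adipocyte markers summed to 4.57 to 38.6 CPM over all mice. The 10 members together took 0.174% to 0.296% of the counts of a library.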
